A study of Homo sapiens with 22 samples.

Results

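Cluster I, as the authors named it, is a set of 25 promoter-class and 177 enhancer-class regions, which are stretches of the genome enriched for asymmetric dimethylation of arginine 2 on histone H3 (H3R2me2a) in cells that had not been given retinoic acid. Every row of the deposited cluster I list was taken, out of 8819 regions in clusters I, II and III together. The lists are themselves the authors' calls from the sequencing data, by a rule that the sources used here do not give. Chromatin immunoprecipitation and sequencing were done in NT2/D1, a pluripotent line from a human embryonal carcinoma. Cluster I and cluster II were deposited under the H3R2me2a library of CRISPR/Cas9 control cells without all-trans retinoic acid (ATRA), and cluster III under the library of control cells after 1 µM ATRA for 3 days. Both libraries used a rat monoclonal antibody made in the submitters' laboratory. The labels do not say whether the control cells were a single clone or a pool. The series also holds cells deleted for PRMT6, antibodies to other histone marks and IgG control libraries, among them IgG libraries of the control cells with and without ATRA, none of which were analysed here.

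PRMT6 is the main enzyme that places H3R2me2a. The mark sits beside lysine 4 of the same histone tail, and it is known to hinder the complexes that trimethylate that lysine at active promoters. It has also been described at enhancers, which carry monomethylated lysine 4. In embryonal carcinoma cells ATRA starts differentiation and lowers pluripotency factors such as OCT4.

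There was 1 library per condition, so no value below has a replicate check and none carries a p-value. Intervals are exact 95% intervals over regions and cover counting error only. No cluster I region overlapped a cluster II or III region by 1 bp or more (0%, upper limit 1.81%), nor the second interval that the authors gave for each cluster II region. The clusters are separate lists made by the authors, so this absence of overlap may follow from how they were made. The working description of cluster I as untreated only could not be checked. No column used here is stated to count tags of the ATRA library at these regions.

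The regions themselves are given by coordinates on hg19 (GRCh37). Sequences are therefore shown for genes rather than regions, from RefSeq (GRCh38.p14). Below are the 250 bases before the start of 5 genes whose start the authors named as nearest to a cluster I region and whose transcript began exactly at the RefSeq start. RIF1 and TIMP4 had the most tags among such genes. The other 3 were chosen after their values were seen: PIH1D2 has the fewest tags in cluster I, and REST and SHFM1 (now SEM1) are promoter-class regions with 35 and 37 tags. Capitals mark matches, on either strand, to the motifs named after the sequences.
RIF1, chr2:151409652-151409901, plus strand: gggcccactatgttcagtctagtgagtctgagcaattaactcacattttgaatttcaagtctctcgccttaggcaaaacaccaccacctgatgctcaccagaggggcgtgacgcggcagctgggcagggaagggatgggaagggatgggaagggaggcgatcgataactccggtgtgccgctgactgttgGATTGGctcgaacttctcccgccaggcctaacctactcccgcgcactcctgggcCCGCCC
TIMP4, chr3:12158913-12159162, minus strand: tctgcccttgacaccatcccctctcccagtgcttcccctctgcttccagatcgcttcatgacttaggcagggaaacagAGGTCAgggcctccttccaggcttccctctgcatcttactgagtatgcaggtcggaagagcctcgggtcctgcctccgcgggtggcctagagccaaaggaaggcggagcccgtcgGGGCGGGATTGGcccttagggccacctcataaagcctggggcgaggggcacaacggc
REST, chr4:56907650-56907899, plus strand: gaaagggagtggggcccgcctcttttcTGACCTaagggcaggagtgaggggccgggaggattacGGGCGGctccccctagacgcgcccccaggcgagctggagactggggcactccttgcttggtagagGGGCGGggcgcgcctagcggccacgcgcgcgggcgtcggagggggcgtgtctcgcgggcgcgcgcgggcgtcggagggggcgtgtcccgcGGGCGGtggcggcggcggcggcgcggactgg
SHFM1, chr7:96709847-96710096, minus strand: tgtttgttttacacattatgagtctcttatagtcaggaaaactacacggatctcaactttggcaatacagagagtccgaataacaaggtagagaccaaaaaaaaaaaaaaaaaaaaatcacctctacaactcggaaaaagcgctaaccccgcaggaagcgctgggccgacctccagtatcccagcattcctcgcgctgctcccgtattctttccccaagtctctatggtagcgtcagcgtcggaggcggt
PIH1D2, chr11:112074018-112074267, minus strand: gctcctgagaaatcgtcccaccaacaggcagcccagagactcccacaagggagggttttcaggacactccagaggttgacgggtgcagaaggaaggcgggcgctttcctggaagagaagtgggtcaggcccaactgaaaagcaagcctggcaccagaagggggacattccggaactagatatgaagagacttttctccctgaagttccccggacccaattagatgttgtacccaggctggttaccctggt

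The motifs searched were the TATA box TATAAA, the CCAAT box CCAATC, the GC box GGGCGG and the E-box CACGTG. Also searched were AGGTCA, a unit of retinoic acid response elements, and the octamer ATGCAAAT bound by OCT4-type factors. A single AGGTCA is only part of a retinoic acid response element. Of 35114 RefSeq promoters of this length, 10.7% held the first, 14.1% the second, 42.6% the third, 6.35% the fourth, 12.1% the fifth and 1.63% the octamer. REST held 3 GC boxes and 1 AGGTCA unit. TIMP4 held 1 GC box, 1 CCAAT box and 1 AGGTCA unit, with its GC box and CCAAT box directly adjacent. RIF1 held 1 GC box and 1 CCAAT box, and SHFM1 and PIH1D2 held no match. The promoters also differed in CpG content. The ratio of observed to expected CpG dinucleotides, which is near 1 where CpGs are not depleted, was 1.06 for SHFM1 and 1.04 for REST, then 0.610 for RIF1, 0.447 for TIMP4 and 0.312 for PIH1D2. The authors placed the RIF1 region 870 bp upstream of the start, which is farther out than the bases shown, the REST region at -298 bp, and the TIMP4, SHFM1 and PIH1D2 regions at -30, -81 and 27 bp.

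MicroRNA genes were nearest to 9 cluster I regions (4.46%, 2.06 to 8.29), against 0.858% of cluster II and 1.21% of cluster III regions. In cluster I, 8 such genes were named. Those whose start lay within 10 kb of a region are shown with the seed, bases 2 to 8, in capitals.
hsa-miR-326: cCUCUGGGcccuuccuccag
hsa-miR-3193: uCCUGCGUaggaucugaggagu
hsa-miR-7-2-3p: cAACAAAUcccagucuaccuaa
hsa-miR-4262: gACAUUCAgacuaccug
No seed was shared among the sequences shown. A single mature sequence is shown per gene, and any other product, such as one from the other arm of MIR7-2, was not compared. The MIR326 region was intronic, 4565 bp from the start, with 92 MACS tags, the count of reads that the peak caller reported for a region. MIR3193 had a pair of regions, 325 bp upstream and 224 bp beyond its start, with 43 and 90 tags. A region 1547 bp beyond MIR7-2 had 36 tags and an intergenic region 6601 bp from MIR4262 had 44. The other microRNA names were far from their regions, from 16396 bp (MIR4306, 61 tags) to 215051 bp (MIR595, 48 tags).

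Most cluster I regions were small and carried few tags. MACS tags ran from 27 to 139 with a median of 40 (39 to 42), and 159 regions (78.7%, 72.4 to 84.1) had fewer than 50. Widths ran from 208 to 1184 bp with a median of 426 bp (407 to 445). The widest were at KIAA0040 (1184 bp), MIR326 (912 bp), HAS3 (854 bp), MIR3193 (822 bp) and RNA5SP75 (790 bp). Tags per 100 bp of region ran from 7.23 to 18.3, with a median of 9.67. The densest regions were those of NGB, which encodes neuroglobin (18.3 per 100 bp over 208 bp), RIF1 (16.2) and SPTLC1 (15.5).

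A second count, named tagcount in the promoter and enhancer lists, was never below 35 in cluster I. It was exactly 35 in 19 regions, and 41 regions (20.3%) had fewer than 35 MACS tags. Tagcount exceeded MACS tags by 0 to 8, and was equal to them in 14 regions. These were at RNA5SP75, MIR326, LINC00269, KDM2B, RP11-639F1.1, AC099552.3, SYT12, INPPL1, RP11-597M17.1, NFASC, RNU105B, NAV2-AS3, NGB and SNHG1. The ratio of the 2 counts was highest at PIH1D2 (35 against 27, ratio 1.30), followed by SYT13, POLD2P1, TPX2 and PIANP. The lower limit of 35 forces a ratio above 1 wherever MACS tags are fewer than 35, as at PIH1D2, SYT13 and TPX2. Of 6519 cluster III regions, 1751 (26.9%) also had a tagcount of 35 or more.

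**Figure D1:**
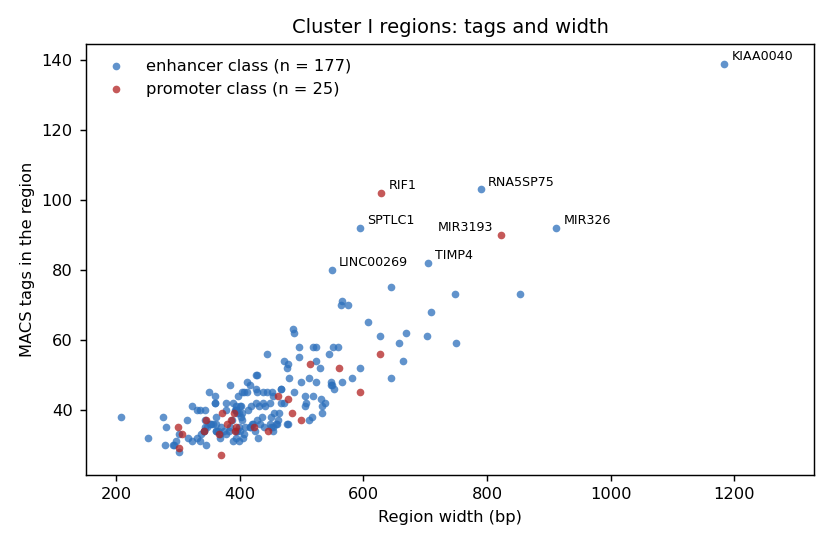
MACS tags (vertical axis) against width in bp (horizontal axis) for cluster I, 1 point per region, with the promoter class in red and the enhancer class in blue and the nearest gene named for the 8 regions with most tags. Of all points 78.7% lie under 50 tags, and the KIAA0040 region lies far from the others at 139 tags and 1184 bp.

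Most tags, 139, were at an intronic region (chr1:175098789-175099972) whose nearest start, that of KIAA0040, was 62253 bp away. RNA5SP75, a copy of the 5S ribosomal RNA gene, had a region 2887 bp upstream of it with 103 tags. RIF1, whose protein sets replication timing and guides repair of broken DNA, had 102 tags at chr2:152265267-152265895. SPTLC1, which encodes a subunit of the first enzyme of sphingolipid synthesis, had an intronic region with 92 tags 17385 bp upstream of the named start. These 4 and the MIR326 and MIR3193 regions were the 6 with 90 tags or more.

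Next came TIMP4, which encodes an inhibitor of matrix metalloproteinases, with 82 tags at its start, and LINC00269 on chromosome X with 80 tags in an intergenic region 84739 bp from the start. CR1L was named for a pair of intron-class regions with 75 and 58 tags, both upstream of its named start, and RP1-144F13.4 for a pair with 71 and 44. GRHL3, a grainyhead-like transcription factor of surface epithelium, had 73 tags at one region and 42 at an exonic one. The region nearest to the start of HAS3, a hyaluronan synthase gene, had 73 tags and lay 32973 bp upstream of that start. It was of the intron class, which does not say in which gene the intron lies. The 15 strongest closed with AC010609.1 and POU5F1 (70 tags each) and KDM2B (68), whose product demethylates histone H3 and binds unmethylated CpGs. At the lower end were PIH1D2 (27 tags), SYT13 (28), TPX2 (29), and RP4-710M16.2, RP11-899L11.1, DOCK10 and RP3-451B15.3 (30 each).

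By the authors' position classes, 82 regions lay in introns, 53 between genes, 44 in windows around starts, 19 in upstream windows and 4 in exons. Of all regions 96 lay upstream of the nearest start and 106 at or beyond it. Median distance to the nearest start was 8859 bp in the enhancer class (5673 to 11348) and 298 bp in the promoter class (129 to 668). Median MACS tags were 41 in the enhancer class (39 to 42) and 37 in the promoter class (35 to 43). At or above the median of 40 lay 99 of 177 enhancer-class regions (55.9%, 48.3 to 63.4) and 8 of 25 promoter-class regions (32%, 14.9 to 53.5), whose intervals overlap.

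**Figure D2:**
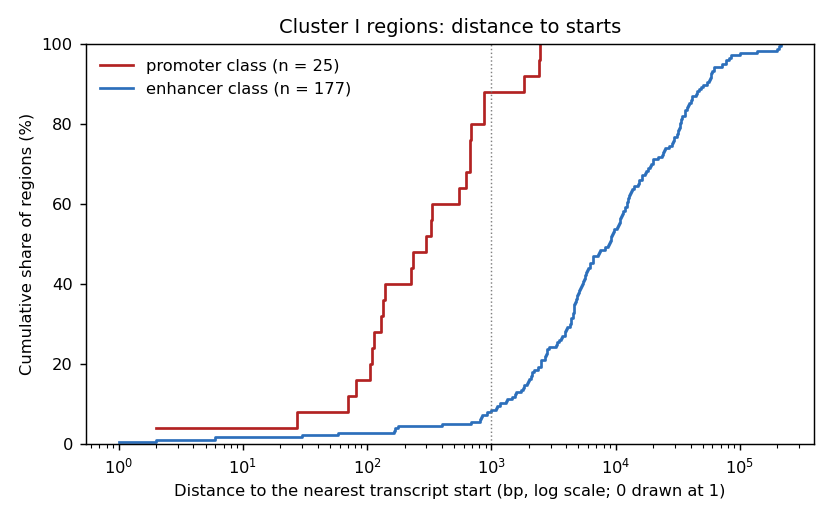
Cumulative share of cluster I regions (vertical axis, %) by distance to the nearest transcript start (horizontal axis, bp on a log scale, dotted line at 1 kb) for the promoter class (red, 25 regions) and the enhancer class (blue, 177 regions). The promoter curve passes 88% before 1 kb, where the enhancer curve is at 8.47%.

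The farthest regions from any start were those named MIR595 (215051 bp), MIR3672 (207928 bp), AC005152.3 (197582 bp), SNORD112 (137323 bp) and OMA1 (99727 bp). In all, 19 regions (9.41%, 5.76 to 14.3) were more than 50 kb from a start. Small RNA gene copies were nearest to 17 regions, with a pair at RNU6-400P (34 and 37 tags, 73 bases apart) and a pair under the name snoU13, on separate chromosomes (50 and 36 tags). Besides RNA5SP75, the others were at Y_RNA (62 tags), RNU105B (45), RNU6-416P (45), RNA5SP76 (42), RNU6-392P (41), Vault (39), RNU7-62P (36), RNU6-250P (36), SNORD112 (35), RN7SL732P (35), RNA5SP448 (34) and RNU2-38P (32).

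All 25 promoter-class regions can be named. At genes of DNA repair, division and chromatin they were RIF1 (102 MACS tags), TPX2 (29) and NUMA1 (33), which encode spindle proteins, H2AFY (37), which encodes the histone variant macroH2A1, and SHFM1 (37), whose small acidic product is a partner of BRCA2 and of the proteasome. REST, which encodes a repressor of neuronal genes outside neurons, had 35 tags 298 bp upstream of its start (chr4:57773598-57773897). LIN28A had 39. At genes of signalling and membranes they were PDGFA (53, in an intron), INPPL1 (52), which encodes a phosphoinositide phosphatase, PTHLH (39), SYT2 (39), PIANP (35), CACHD1 (34, in an intron) and TPCN2 (44), which encodes a lysosomal cation channel.

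Of metabolic genes, ATP5L (36), which encodes an ATP synthase subunit, and BCKDHA (34), of branched-chain amino acid breakdown, had regions at -105 and -109 bp. The remainder were MIR3193 (90 and 43), RP11-843B15.2 (56), AC084018.1 (45), KLHDC9 (37), SNHG1 (35), a host gene of small nucleolar RNAs, ZBED6 (34), KIAA1467 (33, in an intron) and PIH1D2 (27). The range over the 25 was thus 27 to 102 tags, and RIF1 and the stronger MIR3193 region were the only ones above 56.

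Cluster I regions in start windows were split evenly between the lists, with 22 in the promoter list and 22 in the enhancer list. The 22 enhancer-class regions in start windows included TIMP4 (82 tags), GRHL3 (73), POU5F1 (70), KDM2B (68), SYT12 (54), C9orf135-AS1 (50), LARP7 (45), RAB25 (38) and CDH1 (34). LARP7 encodes a protein that holds the 7SK RNA, RAB25 an epithelial recycling GTPase and CDH1 the adhesion molecule E-cadherin. CDH1, RAB25 and LARP7 were picked after their values were seen. The transcripts named at CDH1 and SYT12 have no defined coding sequence in GENCODE 44. No RefSeq start was matched for either, so how far these starts lie from the RefSeq start of the gene is not known here.

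Some of these starts lay far from the start of the gene in RefSeq. Starts were compared between GENCODE 44 and the nearest RefSeq start of the same gene, both on GRCh38, for the 27 of 37 regions within 1 kb of a start that had a match. The named start lay within 500 bp of a RefSeq start for 18 of 27 (66.7%, 46.0 to 83.5). By class these were 14 of 17 promoter-class and 4 of 10 enhancer-class regions. The 4 were TIMP4, LARP7, RAB25 and C9orf135-AS1. The other enhancer-class starts lay downstream of the nearest RefSeq start by 2512 bp at PLXNC1, 8048 bp at SMCO2 and 14458 bp at GRHL3. At KDM2B the offset was 44999 bp, at ADCY3 96222 bp and at INPP5D 109218 bp. In the promoter class the exceptions were AC084018.1 (544 bp), PTHLH (-1994 bp, that is upstream) and NUMA1 (39456 bp).

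Transcript types were counted next. Of 28 cluster I regions within 1 kb of a start of a protein-coding gene, 12 (42.9%, 24.5 to 62.8) were nearest to a transcript that GENCODE 44 lists as a retained intron or without a defined coding sequence. GRHL3, PLXNC1, LARP7, INPP5D, ADCY3 and BCKDHA were of the first kind. The annotation release that the authors used is not named in the labels or headers.

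Positions were then set beside those of cluster II and III regions with a tagcount in the same range, 35 to 142, which held 1740 and 1717 regions. The range did not level MACS tags. Their median was 75 (74 to 77) in these cluster III regions, 50 (49 to 51) over all of cluster III and 40 (39 to 42) in cluster I. Clusters I and III were deposited under different libraries, the counts are unscaled and the depth is not stated. Differences in MACS tags between these clusters, here and below, thus cannot be read as differences in the mark. In the promoter list were 12.4% of cluster I (8.17 to 17.7), 68.9% of these cluster II regions (66.7 to 71.1) and 60.05% of these cluster III regions (57.7 to 62.4). Introns held 40.6% (33.8 to 47.7), 11.6% (10.1 to 13.2) and 17.4% (15.6 to 19.2), and upstream windows 9.41% (5.76 to 14.3), 2.53% (1.84 to 3.38) and 3.55% (2.73 to 4.54). Among regions in start windows, the promoter list took 50% in cluster I (34.6 to 65.4), against 89.2% (87.4 to 90.9) and 88.4% (86.3 to 90.3). None of these intervals for cluster I reached those of the other clusters. Limiting cluster III to this range moved its shares: over all 6519 of its regions, 41.5% (40.3 to 42.7) were in the promoter list and 26.6% (25.5 to 27.7) in introns, both nearer to cluster I. Over all 2098 cluster II regions these shares were 71.6% (69.7 to 73.6) and 9.91% (8.67 to 11.3). Differences between clusters were not tested, because each list comes from a single library and the rule behind the clusters is unknown here.

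**Figure D3:**
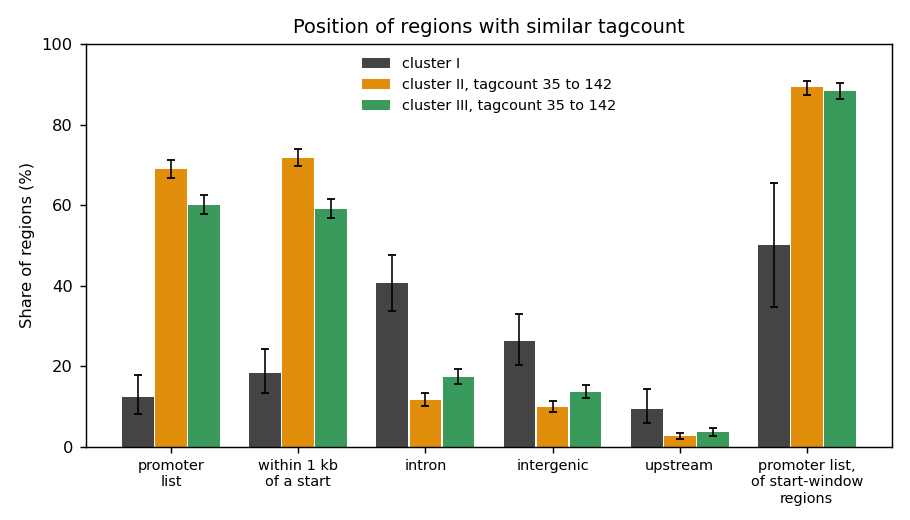
Share of regions (vertical axis, %) in the promoter list, within 1 kb of a start, in each of 3 position classes and, of start-window regions alone, in the promoter list. Bars give cluster I and the cluster II and III regions with tagcount from 35 to 142, and lines give exact 95% intervals over regions. Of the 3 sets shown, cluster I has the lowest share in the promoter list (12.4%) and the highest in introns (40.6%).

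The named start was within 500 bp of a RefSeq start for 91.3% of these cluster II regions near starts (89.3 to 93.04) and 89.0% of these cluster III regions (86.5 to 91.1), against 66.7% in cluster I. Retained introns and transcripts without a defined coding sequence made up 16.9% (14.7 to 19.4) and 19.8% (17.1 to 22.7), against 42.9%. By class, this last share was 23.5% (4 of 17, 6.81 to 49.9) for promoter-class and 72.7% (8 of 11, 39.0 to 94.0) for enhancer-class regions. For starts near RefSeq the cluster I shares were 82.4% (56.6 to 96.2) and 40% (12.2 to 73.8). Enhancer-class regions were relatively more frequent in start windows of cluster I. The part of this class mix was not tested. Where the starts lay within 500 bp of each other, the CpG ratio of the 250 bases had a median of 0.720 in cluster I (18 regions, 0.513 to 0.898), 0.845 in these cluster II regions (0.830 to 0.860) and 0.840 in these cluster III regions (0.825 to 0.863), whose intervals overlap that of cluster I. Over all RefSeq promoters the median was 0.558.

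The median width of cluster I regions was 426 bp, beside 484.5 bp (478 to 496) and 700 bp (690 to 716) in the cluster II and III regions of the same tagcount range. Over all regions of these clusters it was 519 bp (512 to 528) and 514 bp (509 to 519), which differ far less than within that range. Median tagcount per 100 bp was 10.4 in cluster I, 12.5 and 6.75 in cluster II and III within the range, and 13.4 and 4.72 over all their regions. The median ratio of tagcount to MACS tags was 1.06 in cluster I (1.06 to 1.07) and 0.638 in cluster III regions of the same range (0.627 to 0.646), against 0.486 over all of cluster III (0.477 to 0.492). The library behind each of the 2 counts is not stated, and cluster II has no MACS tag column.

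A cluster II or III region lay within 10 kb of 36 cluster I regions (17.8%, 12.8 to 23.8), and within 1 kb of 18 (8.91%, 5.37 to 13.7). The same measure, a region of another cluster within 10 kb, gave 16.8% of cluster II (15.2 to 18.4) and 6.41% of cluster III (5.83 to 7.03), and within 1 kb 5.05% (4.15 to 6.08) and 1.75% (1.44 to 2.10). The number of regions that can be a neighbour differs between these counts. Over all of cluster I, the median gap to the nearest region of another cluster was 57593 bases (42011 to 79711). Counting only the nearest neighbour of each of the 18, 13 were in cluster III and 5 in cluster II. SNHG1, whose nearest was in cluster III, also had a cluster II region 528 bases away (tagcount 53). All 18 were of the same class as the cluster I region, and 16 carried the same gene name.

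RIF1 had such a pair. Its cluster I region (102 MACS tags, tagcount 105) ended 210 bases before a cluster III region at the start itself (chr2:152266106-152266880, 7 bp upstream by the authors' distance), which had 87 MACS tags and a tagcount of 43. At INPPL1 the cluster I region had a tagcount of 52 and its cluster III neighbour, 444 bases away, 23. At MECOM, a transcription factor gene active in blood stem cells, the values were 36 and 25, at SCNN1A, which encodes a sodium channel subunit, 50 and 28, and at ATP2B4, a calcium pump gene, 55 and 29. The nearest pair was at AC139452.2, 114 bases apart (46 and 21). The other pairs with a lower cluster III value were at SNHG1 (35 and 30), PIANP (42 and 29), A2ML1-AS1 (48 and 37), ERC1 (43 and 26) and AC084018.1 (49 and 25).

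In 11 of the 13 cluster III pairs the neighbour had the lower tagcount, the exceptions being RP11-843B15.2 (58 against 138 at BICD1) and RP11-592H6.3 (48 against 115). In all 5 cluster II pairs the neighbour had the higher one. The cluster II neighbours were at RP11-320N7.2 (345 against 40), ZBED6 (219 at ZC3H11A against 36), LIN28A (71 against 42), CDKN2C (61 against 55) and RP11-111A24.1 (41 against 40). The lowest tagcount was 35 in cluster I and in cluster II and 0 in cluster III, where 26.9% of regions reached 35. Over whole clusters the median tagcount was 43 in cluster I, 69 in cluster II and 24 in cluster III. The same orders thus held between whole clusters, and are not particular to these pairs. The part of the lower limit in these orders was not tested.

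**Figure D4:**
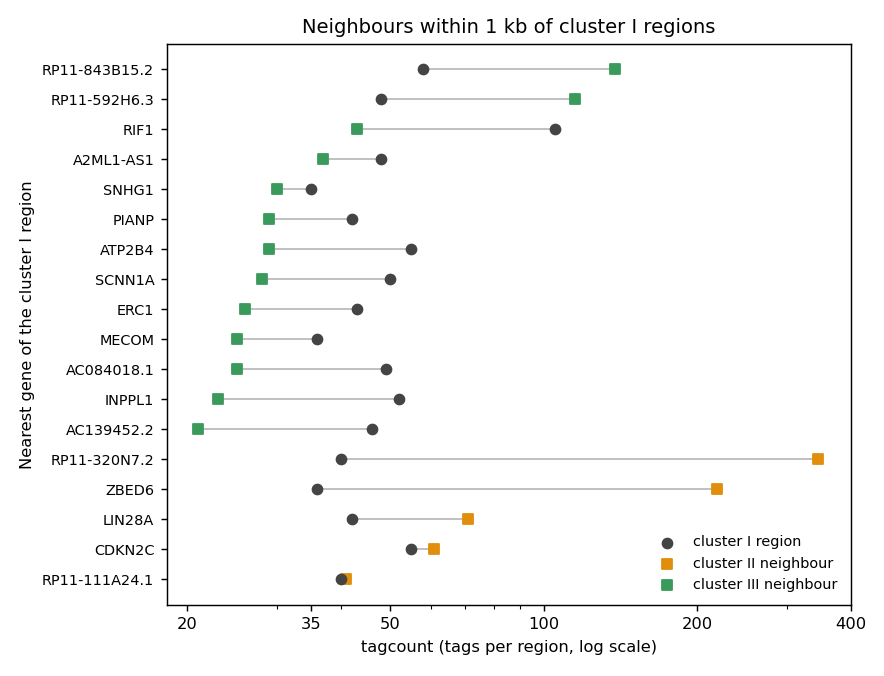
Tagcount (horizontal axis, log scale) of the 18 cluster I regions with a region of another cluster within 1 kb (black circles, named by nearest gene) and of that neighbour (squares, orange for cluster II and green for cluster III). Green squares lie left of the circle in 11 of 13 rows and orange squares lie right of it in 5 of 5.

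At 1 to 10 kb the neighbours were at KIAA1467, RP11-307C19.1, PPP1R21, MIR4306, RNU2-38P, GRHL3, MIR326, FAM46B, CD9, RAB25, LINC00942, ETV6, RP4-799G3.2, SLC6A12, PTPN1, TNNI1, EFCAB14 and HABP2. MIR326 had a cluster II region of tagcount 109 beside its cluster I region of 92, and RAB25 (42) lay 6024 bases from a cluster II region of tagcount 395 at LAMTOR2. ETV6, a transcription factor gene, had its cluster I region of 61 MACS tags between cluster III regions of 81 and 137 MACS tags. CD9, a tetraspanin gene, had 5 cluster III regions and 1 cluster I region, in an intron 1939 bp upstream of the named start. Of 195 distinct nearest gene names, 76 (39.0%, 32.1 to 46.2) were also nearest to a cluster II or III region. Of these, 68 were nearest to a cluster III region and 20 to a cluster II region. Clusters II and III named 1992 and 4902 distinct genes. Of all protein-coding genes of GENCODE 44 they named 7.21% and 14.5%, a base that leaves out non-coding names. A share matched to cluster I for position and gene type was not computed, so the 39.0% is a description only.

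Other cluster I regions lay within 10 kb of 8 regions, in 4 pairs. These were at RP1-144F13.4, CR1L, RNU6-400P and MIR3193. The MIR3193 pair, 92 bases apart on chromosome 20 (30194303 to 30194780 and 30194873 to 30195694), lay 10489 bases from a region named for ID1 (35 tags, 9610 bp upstream of its start). By these values the ID1 start lay between that region and the pair, and much nearer to the pair. The pair was named for MIR3193 because the authors gave its start as nearest. GRHL3, CACHD1 and snoU13 also had 2 cluster I regions each, farther apart.

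Of 438 genes in 19 lists of pathways, lineages and chromatin factors, 9 were named as nearest in cluster I (2.05%, 0.944 to 3.86), against 44 in cluster II (10.05%) and 127 in cluster III (29.0%). Of all 20020 protein-coding genes of GENCODE 44, cluster I named 96 (0.480%, 0.389 to 0.585), cluster II 7.21% and cluster III 14.5%. The lists were written with strong cluster I genes known, so these shares are a description only. Of 31 pluripotency genes, POU5F1 and LIN28A were named in cluster I, while cluster II named 4 and cluster III named 6. POU5F1 encodes OCT4, and its region of 70 MACS tags and tagcount 71 was its only region in any cluster (chr6:31139501-31140063). LIN28A encodes an RNA-binding protein that blocks let-7 microRNA maturation. Its cluster I region of tagcount 42 lay between cluster II regions of tagcount 111 and 71.

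Of 36 genes of the TGF-beta and BMP pathway, the receptor gene BMPR2 (33 MACS tags, in an intron) and the target gene ID1 were named, and neither had a region in another cluster. Of 25 cell cycle genes the list gave CDKN2C, an inhibitor of CDK4 and CDK6, with 52 tags beside 1 region in each of clusters II and III. The receptor gene NOTCH1 (34 tags) was the 1 member of 24 Notch and Hedgehog genes and RUNX1 (32 tags) the 1 of 9 blood and immune genes, both by intronic regions. RIF1 was the 1 named member of 30 replication and repair genes and SPTLC1 of 17 sphingolipid genes, and both were known from earlier results of these data to have strong cluster I regions when the lists were written.

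No cluster I region was nearest to any of 30 retinoid genes, 39 HOX genes, 30 neural lineage genes, 25 genes of the H3K4 methylation machinery, 30 polycomb genes, 32 WNT genes, 27 FGF and MAPK genes or 11 arginine methyltransferase and related genes. The same held for 12 DNA methylation, 9 endoderm, 14 mesoderm and 10 trophectoderm genes. A gene outside the lists is not counted here, and KDM2B, named in cluster I, was in none of them. Cluster I named 0.480% of all protein-coding genes, so lists of 9 to 39 genes are too short for a count of 0 to be read. Cluster II named 5 retinoid genes, no HOX gene and 1 neural gene, and cluster III named 13 retinoid, 8 HOX and 10 neural genes.

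Outside these lists, and picked after their values were seen, were transcription factor genes such as MSX2 (31 tags, 3692 bp upstream), LHX9 (42, intronic), UNCX (46, 4850 bp upstream) and FOXI3 (35, 9241 bp from the start), and the antisense gene DLX6-AS1 (59). Genes of axon guidance and adhesion included SEMA3A (54), SEMA4A (45), NFASC (45) and DSCAM (36). By GENCODE 44, 101 of the nearest transcripts (50%) belonged to protein-coding genes, 45 (22.3%) to long non-coding RNA genes and 15 (7.43%) to processed pseudogenes. A further 14 (6.93%) were not found. Over all of cluster II these shares were 72.3%, 10.9%, 2.62% and 9.82%, and over all of cluster III 58.6%, 19.6%, 6.30% and 8.71%.

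By chromosome, 43 regions were on chromosome 1 (21.3%, 15.9 to 27.6), 26 on chromosome 12 (12.9%, 8.58 to 18.3) and 19 on chromosome 11 (9.41%, 5.76 to 14.3). Over all of cluster II these shares were 16.1%, 7.53% and 5.96%, and over all of cluster III 19.2%, 13.0% and 6.03%. Chromosome 22 held none, beside 18 cluster II and 88 cluster III regions, too few for this absence to be read. The short arm of chromosome 12 held 21 cluster I regions (10.4%, 6.55 to 15.5), against 1.84% (1.26 to 2.59) of cluster II and 19.9% (18.05 to 21.9) of cluster III in the same tagcount range. Over all of cluster III the share was 8.64% (7.97 to 9.34), which lies inside the interval of cluster I. The arm also held 12 of the 36 regions with a neighbour within 10 kb. Copy number of the arm in these cells was not measured here, and its part in these counts was not tested. Chromosome 19 held 4 regions (1.98%, 0.542 to 4.99), against 12.2% (10.7 to 13.8) of these cluster II regions and 2.97% (2.22 to 3.89) of these cluster III regions.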

How the data were processed

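H3R2me2a was profiled by ChIP-seq in NT2/D1 cells, and 5 region lists from 2 of 22 samples were used. The submitters' processing notes name bcl2fastq, Bowtie2, MACS 1.4 and deepTools and build hg19 (GRCh37), with no role or order. MACS tags and tagcount are unscaled whole-number counts of reads per region as deposited by the authors, per the file headers. IgG libraries of the same cells were made but not analysed here, and whether they served in peak calling, the thresholds and the depth are not stated in the labels or headers, so counts were compared only within a column or region. The MACS tags of clusters I and III come from lists deposited under different libraries, so a comparison within that column still spans 2 libraries.

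Cluster I was matched to the promoter and enhancer lists by identical coordinates, which gave all 202 regions a class and a tagcount. Position classes (start window 1250 bp, upstream window 5000 bp) and distances are the authors'. Negative distances are upstream. Starts implied by region centres of the same transcript spread by a median of 100 bp over 822 transcripts, so the point from which they were measured is not known. Of 202 transcripts, 188 were in GENCODE 44. Promoters of 27 of 37 regions near starts were matched in RefSeq. Cluster II and III regions were also taken in the tagcount range of cluster I, without a test. The 500 bp RefSeq limit was set after the values were seen. Distance and interval code was tested on simulated data. Python 3.11.15, pandas 2.3.3 and scipy 1.17.1 were used.

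Most named genes follow a rule: the 15 regions with most tags, the 5 with fewest (and ties), every promoter-class region, repeated gene names, members of gene lists, neighbours within 10 kb, extremes of ratio, width and distance, and microRNA and small RNA genes. Others were named after their values were seen: C9orf135-AS1, CDH1, LARP7, PLXNC1, SMCO2, ADCY3, INPP5D, MSX2, LHX9, UNCX, FOXI3, DLX6-AS1, SEMA3A, SEMA4A and DSCAM. Members and lists were chosen with earlier results of these data known.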

Additional observations from a re-analysis of the deposited data

How the results depend on the processing

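Of 23 alternative values for 8 results, 17 stayed within the 95% interval of the value reported and 6 did not. With only the 107 regions at or above the median MACS tags, the promoter-list share was 7.48% instead of 12.4%, the share within 1 kb of a start 13.1% instead of 18.3% and the median ratio of tagcount to MACS tags 1.04 instead of 1.06. MACS tags are the denominator of that ratio, so its lower value may follow from the selection itself. Changing the distance to a start gave 11.9% at 500 bp and 25.2% at 2 kb, and a neighbour limit of 50 kb gave 46.5% instead of 17.8%, as wider limits must hold more regions. Without chromosome 12 the share with a neighbour within 10 kb was 13.1%. Joining by overlap gave the same promoter-list share. No paired analysis was possible because the lists come from 1 library per condition and no test was run. With no replicate, and with IgG libraries and depth not used here, the spread between libraries is unknown for every value here, and intervals cover counting error only.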
